A study of Mus musculus with 11 samples.

Results

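In a mouse tumour-derived line called M00002, sites bound by p65 were set against sites of an HA-tagged fusion, mapped by CUT&RUN with 1 library per antibody. The comparison rested on 15076 p65 peaks and 29176 HA peaks on chromosomes 1 to 19 and X that did not overlap a peak of the IgG control of the same line, 44252 of the 158808 peaks in the series' 11 lists. A p65 peak that overlapped an HA peak by at least 1 bp was called common, and the other peaks p65-only or HA-only. M00002 was grown untreated on Matrigel in a neural medium with bFGF and EGF. It carried the HA-tagged fusion that the labels write CRfus1, taken here as the ZFTA-RELA fusion of the series title. HA, p65, IgG and 2 H3K27ac libraries (antibodies ac4729 and ac647) came from M00002. A second line with the same tagged fusion, M00001, gave the HA, IgG, Cbp, p300 and Rpb1 (S2 and S5) libraries used for comparison. Each line came from 1 mouse, and age, strain, the promoter that drove the fusion and clonality are not given in the sources used here. Every library stands alone, so no difference below has a replicate check, and intervals (exact Clopper-Pearson, 95%) cover counting error over peaks only.

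RELA, also called p65, is a subunit of NF-kappaB, a family of dimeric transcription factors that inhibitor proteins hold in the cytoplasm until a signal degrades the inhibitor. Once in the nucleus, the dimers bind short kappaB motifs and switch on chemokines, adhesion molecules and the genes of their own inhibitors. The ZFTA-RELA fusion, the main driver of supratentorial ependymoma, joins the zinc finger protein ZFTA to most of RELA and lies in the nucleus without a signal. CUT&RUN tethers a nuclease to an antibody inside opened cells, so that DNA around the antibody's target is cut free and read. The HA antibody is directed at the tag, which the fusion alone carries, whereas an antibody to p65 can bind native RELA and RELA within the fusion. The epitope of the p65 antibody is not stated in the sources used here. At common sites native RELA and the fusion can therefore not be told apart. The lists hold no gene expression, so the identity of the cells was not checked against marker genes.

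The promoter sequences below show the letters under summits of common, p65-only and HA-only sites. They come from RefSeq promoters of GRCm38.p6, the assembly behind mm10, run 5′ to 3′ on the strand of the gene, and end before the listed gene start. Base 61 is the p65 summit, or the HA summit for the HA-only site. Capitals mark letters that match GGGNNTTTC or GGGANTTCC, both forms of the kappaB motif, or the GC-rich letters GGGGCC, on either strand. GGGANTTCC can match both strands at one place, as in Nfkb2 and Tlr2. A match is a description of the letters and not a site shown to be bound. The first 4 are promoters with a common site and kappaB letters, from NF-kappaB genes and from the strongest common promoters whose letters lay near the p65 summit. They are Nfkb2 at chr19:46304636-46304736 (plus strand), Nfkbia at chr12:55492648-55492746 (minus strand), Tlr2 at chr3:83841698-83841818 (minus strand) and Rabgap1 at chr2:37443192-37443284 (plus strand). Tlr2, a receptor for bacterial lipoproteins, had a p65 fold of 15.9 and an HA fold of 19.2, and Rabgap1 16.9 and 21.9.
Nfkb2: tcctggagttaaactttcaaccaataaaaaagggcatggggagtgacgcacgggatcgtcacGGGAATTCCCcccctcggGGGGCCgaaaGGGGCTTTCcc
Nfkbia: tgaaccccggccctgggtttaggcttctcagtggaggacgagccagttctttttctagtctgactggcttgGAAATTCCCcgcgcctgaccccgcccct
Tlr2: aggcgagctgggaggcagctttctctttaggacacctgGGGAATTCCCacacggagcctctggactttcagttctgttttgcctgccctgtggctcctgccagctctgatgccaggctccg
Rabgap1: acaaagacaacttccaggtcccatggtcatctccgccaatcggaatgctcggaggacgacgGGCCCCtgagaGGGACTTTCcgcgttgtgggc

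The next 2 had common sites of high fold and no kappaB letters in the printed stretch: Rsph9 at chr17:46144214-46144334 (minus strand) with the GC-rich letters, and Nfkbie at chr17:45555601-45555699 (plus strand) with none of the letters searched.
Rsph9: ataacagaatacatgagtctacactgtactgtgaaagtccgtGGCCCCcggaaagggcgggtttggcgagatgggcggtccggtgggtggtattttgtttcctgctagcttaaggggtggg
Nfkbie: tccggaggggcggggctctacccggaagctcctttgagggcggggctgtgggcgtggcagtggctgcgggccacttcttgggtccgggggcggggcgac

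The last 3 had a peak of 1 antibody and not the other. Zfp335 at chr2:164911798-164911918 (minus strand) and Trp53 at chr11:69580267-69580358 (plus strand) were p65-only, and Hdac6 at chrX:7947934-7948054 (minus strand) was HA-only.
Zfp335: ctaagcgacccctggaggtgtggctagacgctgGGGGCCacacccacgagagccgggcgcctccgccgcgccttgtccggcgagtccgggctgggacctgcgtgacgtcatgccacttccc
Trp53: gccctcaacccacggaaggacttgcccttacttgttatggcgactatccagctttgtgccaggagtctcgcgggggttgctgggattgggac
Hdac6: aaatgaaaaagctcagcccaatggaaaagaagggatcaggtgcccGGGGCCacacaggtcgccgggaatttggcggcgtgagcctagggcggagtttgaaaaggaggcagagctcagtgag

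The first question was how far p65 followed the fusion. Of the p65 peaks, 9653 of 15076, or 64.0% (63.3 to 64.8), overlapped an HA peak, which left 5423 p65-only peaks. Of the HA peaks, 9584 of 29176, or 32.8% (32.3 to 33.4), overlapped a p65 peak, which left 19592 HA-only peaks. The overlapping peaks were nearly equal in number on both lists, so the 2 shares differ through the length of the lists. With only as many HA as p65 peaks, the strongest by fold, 59.5% of p65 peaks and 59.0% of HA peaks were common. In that setting the 2 shares must come out nearly equal, so their likeness is no result. The part of read depth in either share was not tested.

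The p65-only peaks were almost all weak. Fold enrichment here is the authors' value at the summit over the peak caller's background, and it was used only to rank peaks within a list. Common sites had a median p65 fold of 6.24 (quartiles 4.74 and 8.79) and p65-only sites of 3.72 (3.19 and 3.99). In the HA list the medians were 8.62 (6.22 and 12.2) at common and 3.74 (2.99 and 4.80) at HA-only sites. When the p65 list was divided into 5 classes of equal size by fold, the share with HA rose from 15.3% in the lowest class through 35.0%, 76.3% and 94.1% to 99.5% in the highest. Only 14 of the 3015 p65 peaks in the highest class lacked an HA peak. For HA the shares with p65 were 1.34%, 4.00%, 19.2%, 52.0% and 89.0%, so that 642 of 5833 HA peaks of the highest class lacked p65. Peaks with a −log10 q of at least 5 numbered 96 among p65-only sites (1.77%) and 2541 among HA-only sites (13.0%), against 53.0% of common p65 peaks and 79.5% of common HA peaks. Peak width moved with these classes: the median was 156 bp for common p65 peaks and 94 bp for p65-only peaks, 194 bp for common HA peaks and 100 bp for HA-only peaks. The part of peak width in these shares was not tested.

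**Figure D1:**
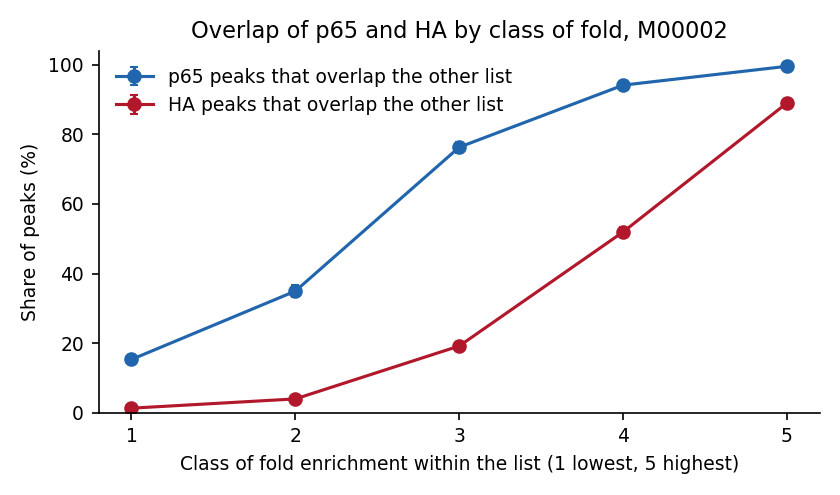
Share of p65 peaks (blue) and HA peaks (red) of M00002 that overlap a peak of the other list, by class of fold enrichment within the list, with exact 95% intervals for counting error over peaks. The p65 share goes from 15.3% to 99.5% and the HA share from 1.34% to 89.0%.

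IgG removed 635 p65 peaks (4.04%) and 761 HA peaks (2.54%), and only 6 p65-only peaks overlapped an HA peak that had been removed. Of the 635 removed p65 peaks, 501 overlapped HA as well. An IgG summit lay within 1 kb of 1.06% of common, 1.62% of p65-only and 0.924% of HA-only summits. The highest pair of all, on chromosome X (chrX:143483005-143483123, p65 fold 108.6 and HA fold 111), had no gene within 5 kb and no IgG summit within 633185 bp. The next, on chromosome 4 (chr4:139206822-139206961, 58.6 and 67.9), had an IgG summit 2307 bp away. Of the 10 common sites with the highest p65 fold, 8 had no gene within 5 kb. By chromosome the share of p65 peaks with HA lay between 58.4% and 73.8%, the latter on chromosome 11, except on chromosome 3, where it was 47.3% (414 of 876). Chromosome 3 also had the lowest share of HA peaks with p65 (21.7%) and the most IgG peaks (528), and the part of background in its share was not tested.

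Most p65-only sites had no HA summit within 1 kb. The median distance from a p65-only summit to the nearest HA summit was 20130 bp, and 553 of 5423 (10.2%) had one within 1 kb. For HA-only summits the median distance to p65 was 39121.5 bp, and 1216 of 19592 (6.21%) had one within 1 kb. These medians depend on the length of the list searched, and the HA list was the longer. No distance expected for random positions was computed, so the medians do not show whether the sites were near or far. The 96 stronger p65-only sites were nearer, at a median of 8313 bp, with 20 of 96 within 1 kb of an HA summit.

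Where peaks of both antibodies overlapped, the distance between their summits was short. The median distance was 22 bp (quartiles 9 and 50), 75.3% of common sites were within 50 bp and 93.3% within 100 bp. The overlap rule itself limits this distance, as the median width of common peaks was 156 bp for p65 and 194 bp for HA. No distance expected from overlap alone was computed. The p65 summit lay to the right of the HA summit at 4509 sites, to the left at 4606 and on the same base at 538, with a signed median of 0 bp. The distance shrank with strength, from a median of 40 bp in the lowest class of p65 fold through 36, 31 and 21 to 14 bp in the highest. It was 24 bp near gene starts and 22 bp away from them. From the same p65 summits to overlapping HA peaks of M00001 the median was 34 bp over 3683 sites. To H3K27ac summits in M00002 it was 171 bp with ac4729 (6368 sites) and 178 bp with ac647 (4028 sites), in lists of wider peaks (medians of 208 bp for HA of M00001, 452 and 341 bp for H3K27ac, against 116 bp for HA of M00002).

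**Figure D2:**
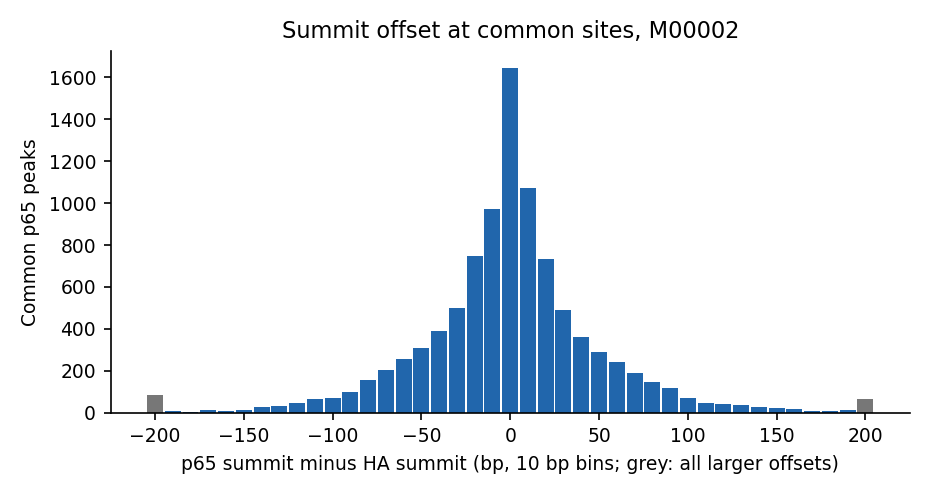
Number of common p65 peaks by the position of the p65 summit minus that of the nearest overlapping HA summit, in bins of 10 bp, with larger offsets pooled in the grey end bars. The distribution is centred on 0 bp with 4509 summits to the right and 4606 to the left.

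The folds of both antibodies ranked common sites much alike. Across the 9653 common sites Spearman's rho between p65 and HA fold was 0.752 (0.734 near gene starts and 0.758 away from them), a description across sites of 1 line that share chromatin and peak width. The highest site on both lists within 5 kb of a gene, by mean rank, lay at Mc2r, the receptor for adrenocorticotropin (p65 fold 26.9, HA fold 33.9). Between Mad2l1bp and Rsph9, the latter a component of the radial spokes of motile cilia, the folds were 25.6 and 31.3 at chr17:46144200-46144424, with summits 4 bp apart, 74 bp before the start of Rsph9 in the stretch printed above. Between Haus5 and Rbm42, an RNA-binding protein gene, they were 24.3 and 32.0, and between Ddost, a subunit of the oligosaccharyltransferase, and Kif17, a kinesin, 25.3 and 29.9. Sik1, which encodes a salt-inducible kinase, had 27.7 for both antibodies. Syvn1, an E3 ubiquitin ligase of the endoplasmic reticulum, had 25.02 and 27.5 with both summits on the same base, 157 bp before a start. Sec61a1, the channel subunit of the translocon of that organelle, had 25.6 and 25.8. The other sites of this ranking were at Pcbp3, at Ddi2 with Rsc1a1, and at Mxra7, Tuft1 and Sp2. All 12 also overlapped an HA peak of M00001, and 9 overlapped H3K27ac of both antibodies. Their summits were 0 to 41 bp apart, at sites chosen for a high rank on both lists.

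At a few common sites the ranks differed. At Sla2, an adaptor that dampens antigen receptor signalling, p65 fold was 14.0 and HA fold 5.06 (chr2:156890118-156890216), the 93.7th and 11.6th percentile of their lists' common sites. Cyth3 with Usp42 (7.78 and 2.95), Fmo5 with Prkab2 (7.43 and 3.69), Dlg2 with Tmem126b (8.97 and 5.23) and Nthl1 with Tsc2 (8.27 and 5.02) followed. In the other direction Nuak2, an AMPK-related kinase, had a p65 fold of 2.89 and an HA fold of 22.1 (chr1:132335249-132335330 for p65), but these summits were 257 bp apart, and the best p65 peak at Nuak2 had a fold of 10.3, so the rank gap there is that of a weaker p65 peak beside a stronger one. Fkbp5, a co-chaperone of the glucocorticoid receptor, had 3.04 and 12.5, Dmtn with Fgf17 2.96 and 12.3 (best p65 fold 7.11), Cnpy4 with Mblac1 4.46 and 15.8, and Tesk2 3.16 and 11.5. In this direction summits were 74 to 257 bp apart, and 6 to 17 bp at the sites where p65 ranked higher.

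**Figure D3:**
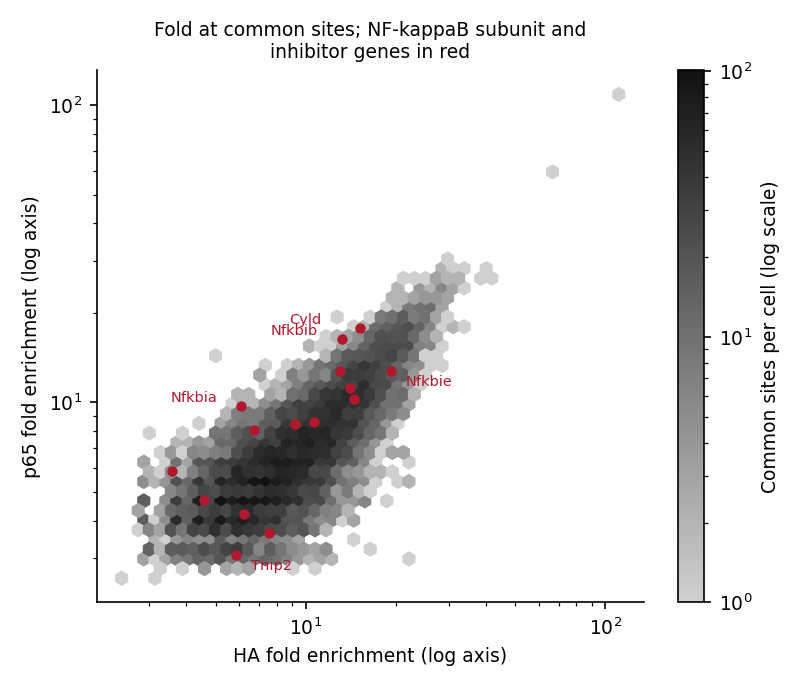
HA fold (x, log axis) and p65 fold (y, log axis) of the 9653 common sites, with grey shade for the number of sites per cell (log scale) and red points for the common site of highest p65 fold at each NF-kappaB subunit or inhibitor gene. Spearman's rho over the sites is 0.752. Choosing the site of highest p65 fold favours p65: the Nfkbia point is the site inside the gene, and the site at its start, not plotted, had folds of 9.68 (p65) and 11.6 (HA).

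The classes differed in position to genes. A summit within 1 kb of a gene start was found at 28.2% of common sites (27.3 to 29.1), 15.0% of HA-only sites (14.5 to 15.6) and 9.37% of p65-only sites (8.60 to 10.2). IgG peaks that overlapped neither p65 nor HA gave 3.63%, and these windows cover 2.01% of the chromosomes. When both lists were first limited to peaks of −log10 q 5 or more, the shares near a start had overlapping intervals. They were 27.1% of common, 27.5% of HA-only and 23.2% of p65-only sites. In that setting a peak over a weaker, dropped peak of the other antibody counted as single-antibody. Of the single-antibody sites of the full lists with such a q, 629 of 2541 HA-only and 18 of 96 p65-only summits lay near a start. Summits inside a gene made up 54.4%, 49.3% and 46.6%, against 40.8% for IgG and 39.1% of the chromosomes. Outside genes and over 1 kb from either end lay 31.4% of common, 43.9% of HA-only and 49.4% of p65-only sites, against 57.4% for IgG. The difference was small in the upper classes of HA fold and not in the lowest, where 21.8% of common (13.2 to 32.6) and 6.08% of HA-only sites lay near a start. In the highest class of HA fold 27.5% of common (26.3 to 28.8) and 24.5% of HA-only sites (21.2 to 28.0) lay near a start, and in the next class 30.0% and 27.2%. For p65 the gap was wider within a class: 30.8% of common and 17.6% of p65-only sites in the middle class, and 28.2% (26.5 to 29.9) and 19.2% (13.7 to 25.8) in the fourth.

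Common sites overlapped acetylated chromatin more often than the single-antibody sites did. H3K27ac, a histone mark of active promoters and enhancers, was not used to define the classes. Peaks of both H3K27ac antibodies overlapped 38.6% of common sites (37.6 to 39.5), 8.51% of HA-only sites (8.12 to 8.91), 4.98% of p65-only sites (4.42 to 5.59) and 2.95% of IgG peaks without p65 or HA. Within 500 bp of the summit the shares were 50.5%, 13.8%, 8.63% and 4.40%. The difference remained within classes of fold. In the highest class of HA fold, 51.2% of common sites (49.9 to 52.6) and 24.0% of HA-only sites (20.7 to 27.5) overlapped H3K27ac, and in the fourth class 30.8% and 18.8%. In the fourth class of p65 fold the shares were 35.7% of common and 15.8% of p65-only sites (10.8 to 22.0). Within these classes common sites still had somewhat higher folds (a median of 11.8 against 9.34 in the highest HA class), so the classes match fold only roughly. Among common sites H3K27ac overlapped 27.6% of those near a gene start and 42.9% of those away from starts.

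HA in the other line followed the same order. HA peaks of M00001 overlapped 38.2% of common sites (37.2 to 39.1), 4.38% of HA-only sites (4.10 to 4.68) and 2.23% of p65-only sites (1.85 to 2.66). IgG peaks of M00002 without p65 or HA overlapped HA of M00001 in 9.58% of cases, above both single-antibody classes, and the part of background shared by the lines was not tested. In the highest class of HA fold the shares were 52.7% (51.4 to 54.1) at common and 17.9% (15.0 to 21.1) at HA-only sites. Of common sites, 51.8% near a gene start and 32.8% away from starts were shared with M00001, the reverse of the order for H3K27ac.

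**Figure D4:**
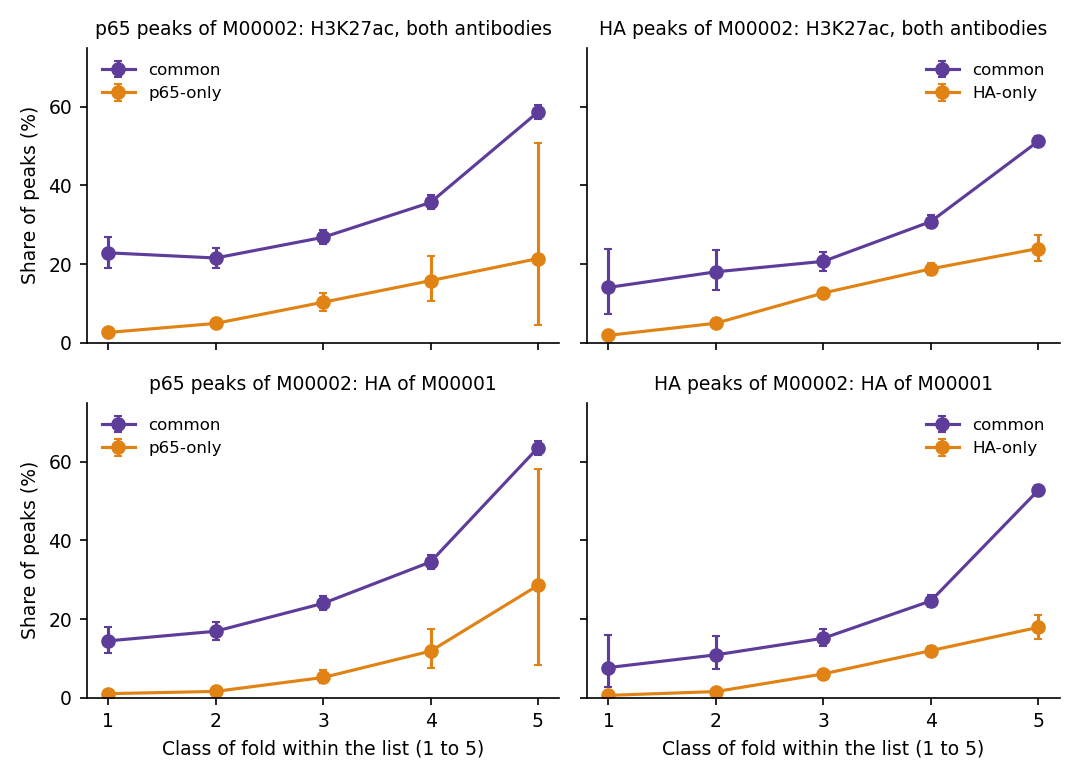
Share of p65 peaks (left) and HA peaks (right) of M00002 that overlap H3K27ac of both antibodies (top) or HA of M00001 (bottom), by class of fold within the list, for common (purple) and single-antibody (orange) sites, with exact 95% intervals. Common sites lie above single-antibody sites in each class, with a wide interval for the 14 p65-only peaks of the highest class.

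In the coactivator and polymerase lists of M00001 common sites had the highest share of the 3 classes, and IgG peaks had a share close to or above that of single-antibody sites. For Rpb1 with S2, 35.8% of common, 15.0% of HA-only and 8.43% of p65-only sites overlapped, against 14.4% of IgG peaks. For S5 the shares were 21.4%, 7.48% and 4.20%, against 13.0%. For the acetyltransferase p300 they were 13.4%, 3.12% and 1.90%, against 12.0%. For its relative Cbp they were 5.73%, 1.43% and 1.49%, against 13.7%, so the share with Cbp was lower at common sites than at IgG peaks. The 3 classes exclude IgG overlaps by rule, whereas the lists of M00001 were used without removal of IgG overlaps. The IgG peaks were also wider, with a median of 162 bp against 94 bp for p65-only and 100 bp for HA-only peaks. The part of background and of width in these shares was not tested.

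The same letters were counted anywhere in 21045 promoters of 300 bases, 250 before to 50 after a start, and not only at the summits. Of all of them 4.28% held GGGNNTTTC, 1.86% GGGANTTCC and 29.7% GGGGCC on either strand, and 5.92% held either form of the kappaB letters. Among the 1723 promoters with a common site, 10.1% (8.72 to 11.6) held kappaB letters, against 9.30% (5.41 to 14.7) of 172 with a p65-only site, 6.34% (5.13 to 7.72) of 1436 with an HA-only site and 5.44% (5.12 to 5.79) of 17705 with neither. The GC-rich letters were far more frequent, at 60.9% (58.6 to 63.3) of common, 43.6% (36.1 to 51.4) of p65-only, 46.4% (43.8 to 49.1) of HA-only and 25.2% of promoters with neither. The share of G and C moved with these classes, with a median of 64% at common promoters and 54.7% at those with neither. Among promoters with 60 to 70% G and C, GGGGCC was in 63.3% of common (60.1 to 66.4), 48.2% of HA-only (44.4 to 52.0), 40.7% of p65-only (30.2 to 51.8) and 39.7% of promoters with neither, and kappaB letters in 10.1%, 6.37%, 6.98% and 5.62%. The intervals for p65-only promoters span the values of HA-only promoters and of those with neither, and for kappaB letters (2.60 to 14.6) also that of common promoters.

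GGGGCC became more frequent from class to class of fold for both antibodies, from 49.9% to 72.7% of promoters for p65 and from 42.9% to 75.3% for HA. The kappaB letters were most frequent in the highest class without a steady rise. By p65 fold their share was 9.04%, 8.49%, 7.91%, 11.9% and 14.9% from the lowest class up, and by HA fold 5.89%, 7.98%, 8.55%, 7.40% and 12.8%. Among the 100 promoters with the highest fold, kappaB letters were in 18 for p65 and 14 for HA, and GGGGCC in 81 and 79. Summits of both antibodies lay at similar distances from the letters. In promoters with a common site, the nearest kappaB letters were at a median of 43 bp from the p65 summit and 46 bp from the HA summit (168 promoters), and the nearest GGGGCC at 32.5 and 29.5 bp (949 promoters). Of 76 common promoters with kappaB letters and no GGGGCC, 43 ranked higher by p65 than by HA, with a median excess of 3.18 percentile points (quartiles −7.23 and 15.0). Of 857 with GGGGCC and no kappaB letters, 409 did, with a median of −0.629 (quartiles −12.9 and 10.6). Most of each of these ranges between quartiles lay within the other. Promoters that face each other share sequence and sites, so they are not independent.

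**Figure D5:**
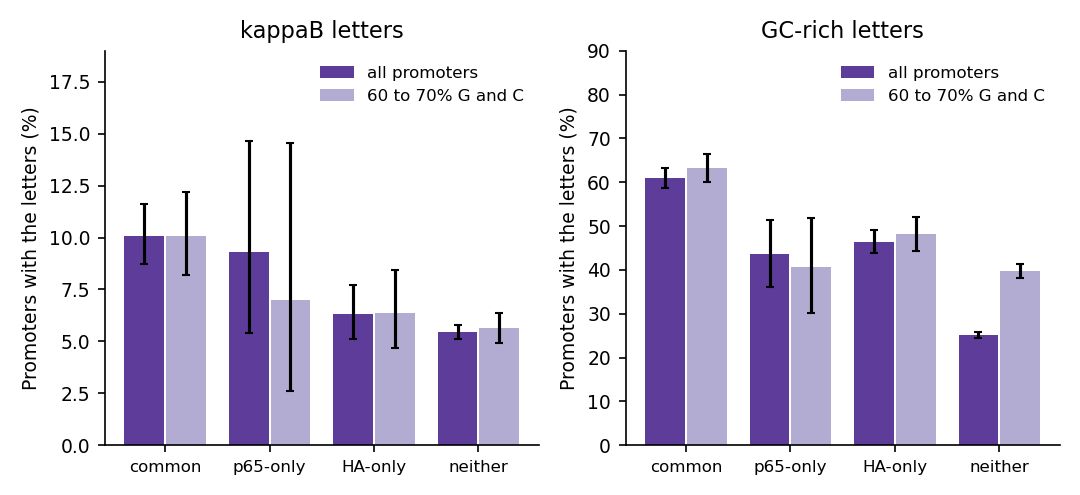
Share of promoters of 300 bases that hold kappaB letters (left) or the GC-rich letters (right), by class of the site in the promoter, for all promoters (dark) and those with 60 to 70% G and C (light), with exact 95% intervals. Common promoters are highest for both, at 10.1% and 60.9%, and the p65-only intervals are wide.

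At the level of genes, few had a p65 peak and no HA peak in the full lists. A protein-coding gene counted as reached when a peak lay within 5 kb of either end. Of 21631 genes, 5366 (24.8%) were reached by p65 and 8581 (39.7%) by HA. A common site lay at 4323 genes (20%), both antibodies without a common site at 381 (1.76%), p65 only at 662 (3.06%) and HA only at 3877 (17.9%). These counts depend on the longer HA list. With the strongest HA peaks equal in number to p65 peaks, 1030 genes had p65 only and 1708 had HA only. Read depth is unknown, so a gene without an HA peak may hold one that was not detected. At the p65-only genes the median of the best p65 fold was 3.83, against 6.71 at genes with a common site. A p65-only peak with a −log10 q of at least 5 lay at 47 genes (0.217%), and such an HA-only peak at 1290 (5.96%). HA of M00001 lay within 5 kb of 57.5% of genes with a common site, 22.6% of those with both but no common site, 13.2% of the HA-only genes and 9.37% (7.26 to 11.8) of the p65-only genes, against 3.40% of genes with neither. Median gene length was 18286 bp at genes with a common site, 18302 bp at p65-only, 20830 bp at HA-only and 15670 bp at genes with neither. Most genes with a common site had 1 (3387 genes), 764 had 2 and 172 had 3 or more. Midn, which encodes the nuclear protein midnolin, had 6, the most of any gene. Per1, a repressor of the circadian clock, had 5, as did Plcb3 and Zcchc24.

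Of the 5 NF-kappaB subunit genes, 3 had a common site and 2, Nfkb1 and Rel, had neither antibody, against 20% of all genes with a common site. Nfkb2, which encodes p100 and p52, had 3 common p65 peaks. The strongest was at chr19:46304541-46304759 with a p65 fold of 12.8 and an HA fold of 13.0, summits 24 bp apart, over the kappaB letters printed above. A second had folds of 11.4 and 10.0 with both summits on the same base. Relb, the partner of p52, had folds of 10.3 and 14.6 at chr7:19628399-19628911 with summits 48 bp apart. Rela itself had 2 common sites, one 121 bp before a start with folds of 5.19 and 7.65 (chr19:5637272-5637539) and one past the other end of the gene with 8.44 and 9.24. Neither overlapped HA of M00001. No subunit gene was reached by 1 antibody only.

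Of 15 genes for inhibitors and feedback regulators of NF-kappaB, 12 had a common site, against 20% of all genes, 2 had HA only, against 17.9%, and Traf1, a signalling adaptor, had neither. Cyld, a deubiquitinase that dampens the pathway, had a p65 fold of 17.8 and an HA fold of 15.2 at chr8:88696782-88696980, with summits 9 bp apart. Nfkbib, which encodes IkappaB beta, had 16.3 and 13.2 (chr7:28766429-28766852). Nfkbie, which encodes IkappaB epsilon, had 12.7 and 19.3 (chr17:45555539-45555734), with summits 68 bp apart. The stretch printed above held no kappaB letters, but the HA summit, at chr17:45555593, lies just outside it. Nfkbia, which encodes IkappaB alpha, had 2 common sites. At its start (chr12:55492595-55492828) the folds were 9.68 and 11.6 with both summits on the same base, and inside the gene (chr12:55491889-55492031) 9.70 and 6.08. Birc3, a ubiquitin ligase induced by NF-kappaB, had 11.2 and 14.1, and an IgG peak within 5 kb of its ends.

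The other members of that list had lower folds. Tnip1, which binds the deubiquitinase A20, had 8.58 and 10.6, and Tnfaip3, which encodes A20, 8.08 and 6.71 with summits 189 bp apart. Birc2, a ubiquitin ligase, had 5.87 and 3.57, and Traf3, an adaptor that restrains the noncanonical pathway, 4.21 and 6.23 with summits 187 bp apart. Traf2, Tnip2 and Nfkbid had p65 folds of 3.65, 3.06 and 4.68, with −log10 q of 1.11, 0.647 and 2.75. The HA folds at these sites were 7.53, 5.85 and 4.56. Another common site of Nfkbid had a p65 fold of 3.12 and an HA fold of 8.97. HA alone reached Bcl3, an atypical IkappaB protein, with a fold of 7.40, and Nfkbiz, another, with 2.99 and a −log10 q of 0.483. Each of the 12 genes of this list with a p65 peak had a common site.

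Secreted and surface targets of NF-kappaB were reached by both at 11 of 20, by HA only at 3, by p65 only at 1 and by neither at 5, against 20%, 17.9%, 3.06% and 57.3% of all genes. The folds given here and for the lists below are the best of each antibody within 5 kb of the gene, and can come from different sites. Icam1, the adhesion molecule, had 15.5 for p65 and 17.1 for HA, Ccl5, a chemokine for T cells, 14.9 and 23.8, Ccl2, a chemokine for monocytes, 13.4 and 21.3, and Csf1, the growth factor of macrophages, 12.8 and 14.6. The gene reached by p65 only was Il6, a cytokine and a textbook target of NF-kappaB, with a p65 fold of 4.71 and a −log10 q of 2.81, and with an IgG peak within 5 kb. HA only reached Vcam1 (9.34), Ltb (5.74) and Ptgs2 (4.49), while Il1b, Csf2, Sele, Ccl7 and Ccl20 had neither.

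Among 14 kinases and adaptors upstream of NF-kappaB, 5 had a common site, 6 had HA only and 3 had neither, against 20%, 17.9% and 57.3% of all genes. Of the 6, Traf6 had a −log10 q of 4.59, and Tab1, Tab2, Tbk1, Tnfrsf1a and Ikbkg had 0.483 to 1.46. Map3k14, the kinase that starts the noncanonical pathway, had a p65 fold of 12.1 and an HA fold of 13.3. Myd88, the adaptor of Toll-like receptors, had 9.20 and 11.04, Ikbke 7.92 and 8.81 and Map3k7, the kinase TAK1, 7.07 and 13.8. The genes of the core kinases, Chuk and Ikbkb, had neither antibody, and Ikbkg, their scaffold, had HA only at 2.99. Of 9 genes of antigen presentation, 7 had a common site and 2 HA only, against the same 20% and 17.9%. H2-D1, a class I heavy chain, had 13.7 and 15.3, Tapbp, the chaperone tapasin, 11.5 and 12.6, H2-K1 7.84 and 9.75, and B2m, the light chain, 6.81 and 10.5.

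Outside the pathway, 8 of 16 genes known from ependymoma or radial glia had a common site, 1 HA only and 7 neither, where the shares over all genes were 20%, 17.9% and 57.3%. The same shares stand beside the next 4 lists. Nes, the intermediate filament nestin, had best folds of 11.8 and 13.4 with an IgG peak within 5 kb, Hes1, an effector of Notch, 10.4 and 11.3, Notch1 8.58 and 11.8, and Sox9, a transcription factor of glial progenitors, 8.56 and 16.3. Ccnd1, which encodes cyclin D1, had HA only at 4.67, and L1cam, a surface marker of this tumour type, had neither. Of 8 coactivator genes, 5 had a common site, with Ep300, the gene of p300, highest at 15.0 and 23.6, 2 had HA only and 1 neither. Of 12 housekeeping genes, 8 had a common site, 1 HA only and 3 neither, with Actb at 17.6 and 18.9. Of 12 genes of other tissues, 1 had a common site (Apoa2, an apolipoprotein of the liver, 19.6 and 24.0), 3 HA only and 8 neither. Of 3 PLAG family genes, none had p65 and Plagl2 had HA only at 9.62. Over all 114 genes found of the lists, Il6 was the only one reached by p65 alone, where 3.06% of all genes were.

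The strongest p65-only site near a gene lay at Ubqln1, which encodes a shuttle of ubiquitinated proteins, with a fold of 10.4 (chr13:58171956-58172042) and the nearest HA summit 42925 bp away. Next came a site between Leng8, Leng9 and Cdc42ep5 with 8.25, 2 bp after a start of Leng9. The site between Trp53, the tumour suppressor p53, and Wrap53 had 8.21 (chr11:69580303-69580427) and lay 32 bp before a start of Trp53, with an HA summit 1011 bp away. Sun2, a protein of the nuclear envelope, had 8.03 with an HA summit 551 bp away, Pim1, a serine/threonine kinase, 8.03 with one at 855 bp, Emp1, a membrane protein, 7.80 with one at 640 bp, and Sox9 7.92 with one at 3350 bp. Zfp335, a zinc finger protein, had 7.76 at chr2:164911836-164911944, 108 bp before its start, with the nearest HA summit at 6426 bp. Of these 8, 4 had an HA summit within 1011 bp without overlap, and Sox9 also had 2 common sites elsewhere. Of the 8, 3 overlapped H3K27ac and 2 overlapped HA of M00001, at Sun2 and beside Leng9, where HA was thus found in the other line.

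Among the strongest HA-only sites, Hdac6, a cytoplasmic deacetylase, had an HA fold of 19.1 at chrX:7947868-7948096, 105 bp before a start, with the nearest p65 summit 48696 bp away. Tada1, a subunit of a coactivator complex, had 16.2 and no p65 summit within 356461 bp, Cse1l, an export receptor of importin alpha, 15.7, and Nop58, a core protein of small nucleolar ribonucleoproteins, 15.4. A site beside H4c3, H1f6 and Hfe had 14.7, Ghr, the growth hormone receptor, 14.5, Actrt2 14.4, and Samhd1, which degrades deoxynucleotides, 14.4. The nearest p65 summits of these 8 were 8253 to 356461 bp away. Of the 8, 3 overlapped H3K27ac and 3 overlapped HA of M00001.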

How the data were processed

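CUT&RUN peak lists of 11 libraries were deposited, 1 per library and not pooled. The tools, per the submitters' processing notes, included Trim Galore and FastQC, Bowtie2 2.3.5.1, MACS2 and deepTools, with the build mm10 and no stated settings. Each deposited peak has a score, a fold (a ratio over the caller's background), −log10 p and −log10 q values and a summit position. The smallest −log10 p deposited by the authors was 3. Read depth and the control used in calling are not given in the sources used here. A mark of 120 bp, unexplained there, stands on the lists of HA and p65 and not on that of IgG, and the narrowest peaks were 79, 80 and 130 bp.

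Peaks on chromosomes 1 to 19 and X (15711 of 16253 for p65, 29937 of 30680 for HA, 5932 of 7045 for IgG) that overlapped IgG of M00002 by at least 1 bp were removed. Classes of fold held an equal share of a list each, with equal folds kept together. The gene table was RefSeq's for GRCm38.p6 (21631 protein-coding genes). A start was listed for 17274, and either end stood for it otherwise. Overlaps were tested on simulated peaks with known answers. Python 3.11.15, pandas 2.3.3 and scipy 1.17.1 were used. With 1 library per target no test was made.

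Members, the 10 gene lists (115 genes, 114 found) and the rule for named genes were chosen with earlier results of these data known. The rule took the 12 common sites of highest mean rank, the 5 with the largest excess of rank in each direction, the 8 strongest p65-only and HA-only sites within 5 kb of a gene, up to 4 members of a list and class, and all subunit and inhibitor genes. Genes with 5 or more common sites, Il6, Vcam1, Bcl3 and other single members were named after their values were seen. Alternatives were −log10 q of at least 5, 50% overlap, IgG of either line, equal list lengths and gene windows of 1 and 25 kb.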

Additional observations from a re-analysis of the deposited data

How the results depend on the processing

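Of 68 values under alternative settings 27 moved by no more than their counting interval (counts of genes by no more than 1.5 times) and 41 moved further. With peaks of −log10 q of at least 5 alone, 93.7% of p65 and 47.9% of HA peaks were common and the median summit distance was 16 bp. Near a start lay 27.1% of common, 23.2% of p65-only and 27.5% of HA-only sites, so that the classes no longer differed by more than their intervals there. H3K27ac overlapped 51.5%, 23.2% and 25.5%, and HA of M00001 overlapped 54.3%, 15.9% and 20.2%. Genes numbered 2407 with a common site, 107 with p65 only and 2090 with HA only. These single-antibody classes include peaks over a weaker peak of the other antibody that the cut dropped. Of the 2541 HA-only peaks of the full lists that passed the cut, 517 overlapped H3K27ac and 338 HA of M00001. For the 96 such p65-only peaks the counts were 19 and 15. With the strongest HA peaks equal in number to p65 peaks, 59.5% of p65 and 59.0% of HA peaks were common at a median distance of 21 bp. A p65 peak over a dropped HA peak counted as p65-only in this setting. Near a start then lay 11.1% of p65-only and 23.9% of HA-only sites, H3K27ac overlapped 40.0%, 6.61% and 15.9% of common, p65-only and HA-only sites, HA of M00001 overlapped 40.2%, 3.15% and 9.65%, and genes numbered 1030 with p65 only and 1708 with HA only. With 50% overlap of the shorter peak 62.2% of p65 and 31.9% of HA peaks were common, and 5.74% and 2.79% of p65-only sites overlapped H3K27ac and HA of M00001. A gene window of 1 kb gave 2750, 418 and 2576 genes with a common site, p65 only and HA only, and 25 kb gave 7767 with a common site. Both settings with 500 bp windows were chosen after seeing the data: summits within 500 bp of each other made 66.5% of p65 and 35.3% of HA peaks common, and H3K27ac within 500 bp of a summit was found at 50.5%, 8.63% and 13.8% of common, p65-only and HA-only sites. Removal of peaks that overlap IgG of either line moved none of its values further than the interval. The causes of these moves were not tested, beyond fewer peaks under stricter settings. No paired analysis was possible because each target had 1 library in the line. Read depth is unknown, so an absent peak may be one not detected. A −log10 q of at least 5 was reached by only 1.77% of p65-only and 13.0% of HA-only peaks.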
